A study of Mus musculus with 6 samples.

Results

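Genes of glutathione synthesis, import and turnover were followed in RNA-seq libraries from cells labelled SaOS2, a human osteosarcoma line. The 10 genes were chosen by name: GCLC, GCLM, GSS, GSR, SLC7A11, CHAC1, CHAC2, GSTP1, GPX1 and CBS. All 10 of these symbols were among the 17144 genes with deposited counts, and all 10 passed the filter on low counts and were among the 12682 genes tested. The 6 libraries carry titles made of the letter C or D and a number, which gives 3 libraries per group. The series concerns the effect of an agent named DDTC(I), but the labels attach no agent, dose or time to either letter, so differences are given as D minus C with neither group called treated. Nothing in the labels tells separate cultures from repeat preparations of one culture, and p-values therefore measure the spread between these libraries, which may be technical.

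Glutathione is a tripeptide of glutamate, cysteine and glycine and the main small thiol of the cell. Cysteine is usually limiting: it is imported as cystine by the xCT antiporter, whose light chain is SLC7A11, or made from methionine by transsulfuration, whose entry enzyme is CBS. Glutamate-cysteine ligase, with the catalytic subunit GCLC and the modifier subunit GCLM, performs the rate-limiting step, and GSS adds glycine. GSR regenerates glutathione from its oxidised form with NADPH, GPX1 and GSTP1 spend glutathione on peroxides and on electrophiles, and CHAC1 and CHAC2 degrade it inside the cell. The transcription factors NRF2 and ATF4 are known activators of several of these genes.

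Library totals ranged from 18446443 to 20602771 counts, and replicates differed by more than sampling noise, from 6.21 (C1 against C2) to 90.5 (D2 against D3) in chi-square per degree of freedom. The labels name the mouse, while the symbols are human. ALPL, the alkaline phosphatase for which SaOS2 is known, had 8 to 15 counts per library. That goes against the label, so the cells are named here only by it. The summed level of 10 osteoblast markers lay between 2002 and 2359 CPM in C and between 718 and 807 in D. SPARC, a matrix glycoprotein gene, gave most of that sum, with a mean of 1913 CPM in C and 681.5 in D. Of 7 osteoblast markers tested, 5 fell and 1, SPP1, rose (from 0.341 to 2.38 CPM), and ALPL was not called. The osteoblast genes SP7, IBSP and BGLAP had at most 2 counts in any library of either group and were not tested. Sums of 5 endothelial markers were 20.2 to 25.1 in C and 14.3 to 15.5 in D, those of 5 epithelial markers 79.4 to 88.8 and 101 to 135, and those of 7 blood markers 478 to 499.5 and 460 to 502. CD68, a lysosomal protein gene, made up nearly all of the last sum, and the other 6 had at most 21 counts in any library. Among those 6, SPI1, a myeloid transcription factor gene, had 2, 3 and 2 counts in C and 19, 18 and 21 in D and was called higher. CD14 had 3, 1 and 2 against 11, 5 and 15, and the leukocyte gene PTPRC 8, 8 and 2 against 2, 3 and 2, and neither was tested. Of 4 endothelial markers tested, 2 were called lower, CDH5 (from 4.24 to 0.551 CPM) and PECAM1, and 0 higher. Of 3 epithelial markers tested, 2 were called higher, KRT18 (from 38.4 to 71.4 CPM) and CDH1, and 0 lower. The part of these markers in the results that follow was not tested. In bulk RNA, fewer cells of a kind and less RNA per cell cannot be told apart.

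Nearly the whole set was higher in D: 9 of the 10 genes were called higher and 0 lower. The call was an adjusted p under 0.05 in the edgeR quasi-likelihood test, and 26.8% of all tested genes were called higher by it and 27.7% lower. A rise of at least 2-fold was called for 6 of the 10 (CHAC1, SLC7A11, GCLM, GCLC, GSR and CBS), against 8.37% of all tested genes. The median log2 fold change of the 10 genes was 1.43, that of all tested genes −0.02. In TMM-normalised CPM, every D library lay above every C library for 9 of the 10, which held for 30.6% of tested genes. CHAC2 was the exception in the count of calls and in that of groups without overlap. In FPKM (counts per length and library total), GPX1 overlapped too, with 209.8 in D2 and 222.2 in C1. GSTP1, GPX1, GSS and CHAC2 were the 4 genes below a 2-fold rise. Levels below are TMM-normalised CPM (counts scaled to a common library size), as mean ± SD with n = 3, and errors of log2 fold changes are standard errors.

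**Figure D1:**
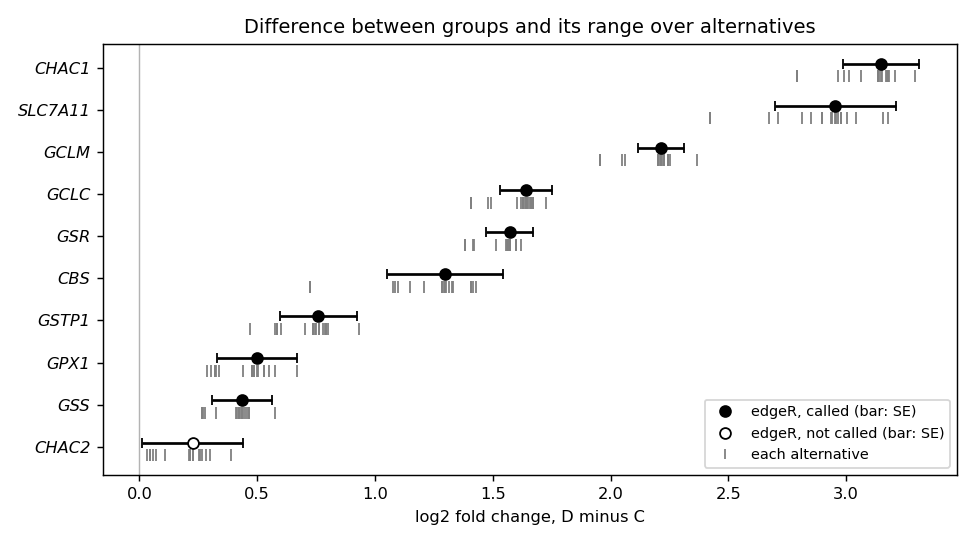
Log2 fold change of each glutathione gene, D minus C, with its standard error (black bar), and the value under each alternative processing (grey ticks). The genes spread from 0.23 for CHAC2 to 3.15 for CHAC1, and the ticks of every gene stay above 0.

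Cystine import showed one of the largest differences. SLC7A11 had 30.5, 25.5 and 33.45 CPM in the C libraries and 215.0, 322.0 and 156.5 in the D libraries. The groups were far apart, with D2 the highest and D3 the lowest of its group, 2.06-fold from each other. Mean CPM went from 29.8 ± 4.02 to 231 ± 83.9, and the log2 fold change was 2.95 ± 0.26 (7.75-fold, adjusted p = 5e-05). It ranked 120 from the top among the 12682 genes by log2 fold change. Its spread in D, a coefficient of variation of 36.3%, was the widest of the 10 genes, and its partner heavy chain SLC3A2, which anchors several amino acid transporters, rose from 380 ± 27.7 to 1220 ± 187 CPM (1.68 ± 0.14).

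CBS stood at the low end of the set. It had 51, 96 and 93 raw counts in C and 215, 161 and 137 in D, or 2.61, 4.44 and 4.41 CPM against 12.1, 8.38 and 7.78. C1 was the lowest and D1 the highest library, and the groups did not overlap. The log2 fold change was 1.30 ± 0.25 (adjusted p = 0.0024), and it was 0.73 on the log2(FPKM + 1) scale, where the pseudocount shrinks low genes, with the call kept. The near-identical copy CBSL had 3, 17 and 2 counts in C and 5, 5 and 3 in D, and how reads were divided between the copies is uncertain. With both copies summed the log2 fold change was 1.21 (adjusted p = 0.0040). CTH, which completes the route from methionine to cysteine, rose from 25.8 ± 2.09 to 126 ± 12.3 CPM (2.29 ± 0.12, adjusted p = 6.7e-06).

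Both subunits of glutamate-cysteine ligase rose, with the larger log2 fold change in the modifier (their ratio is tested below). GCLM had 57.65, 59.5 and 57.4 CPM in C and 256, 278.5 and 275.5 in D, tight groups without overlap. Its log2 fold change was 2.21 ± 0.10 (4.64-fold, adjusted p = 4e-06), with a coefficient of variation of 1.97% in C and 4.53% in D. GCLC had 35.7, 35.9 and 33.0 CPM in C and 113, 116 and 98.0 in D, D3 being the lowest of the D libraries. Its log2 fold change was 1.64 ± 0.11 (3.12-fold, adjusted p = 1.7e-05).

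Glutathione synthetase, which completes the tripeptide, showed the smallest of the called changes. GSS had 96.5, 102 and 98.9 CPM in C and 132, 114 and 156.5 in D. The groups did not overlap, but D2 lay close to C2. The mean went from 99.3 ± 2.98 to 134 ± 21.3 CPM (log2 fold change 0.44 ± 0.13, adjusted p = 0.018). This call was lost without C1 (0.41), C2 (0.46), C3 (0.43) or D1 (0.45), with adjusted p between 0.053 and 0.076 in those fits, and with library size as the only scaling (0.28).

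GSR, glutathione reductase, gave the most even values of the set in D. Its libraries had 60.1, 69.7 and 65.7 CPM in C and 195.3, 195.6 and 190.1 in D. The D libraries lay within 1.03-fold of one another. The log2 fold change was 1.57 ± 0.10 (2.97-fold, adjusted p = 1.5e-05), next to that of GCLC.

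The 2 most abundant genes of the set, GSTP1 and GPX1, showed small rises that varied among the D libraries. GSTP1, a transferase that conjugates glutathione to electrophiles, had 341, 343 and 306 CPM in C and 529, 445 and 702 in D. GPX1, the cytosolic selenoenzyme that reduces hydrogen peroxide, had 249, 218 and 206 in C and 294, 255 and 403 in D. In both, D3 was the highest and D2 the lowest of the D libraries, and no D library fell among the C values in CPM. In FPKM, GPX1 was lower in D2 (209.8) than in C1 (222.2). The log2 fold changes were 0.76 ± 0.16 for GSTP1 (adjusted p = 0.0046) and 0.50 ± 0.17 for GPX1 (adjusted p = 0.035). The GPX1 call was lost without C1 (0.58), C2 (0.48), C3 (0.44) or D1 (0.55), and with library size only (0.34), and without D3 its log2 fold change was 0.30, still called.

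**Figure D2:**
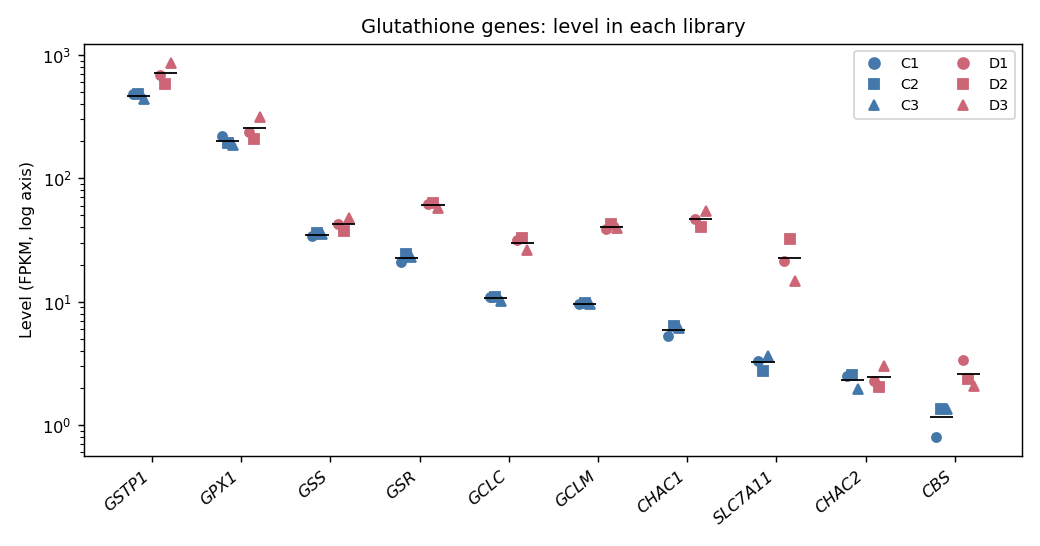
Level of each gene in each library in FPKM (counts per length and library total, log axis), with the group mean as a black line. SLC7A11 and CHAC1 move from the lower part of the range in C to levels near those of GCLC and GSS in D. CHAC2 and GPX1 overlap between the groups on this scale.

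The cyclotransferase genes CHAC1 and CHAC2, whose products split glutathione within the cell, are set side by side. CHAC1 had 18.55, 22.7 and 21.7 CPM in C and 179.9, 155.9 and 221.9 in D. Every D library was many times above every C library. Its log2 fold change, 3.15 ± 0.16 (8.86-fold, adjusted p = 5.5e-06), was the largest of the 10 and ranked 102 among all tested genes. CHAC2 had 3.13, 3.24 and 2.46 CPM in C and 3.16, 2.81 and 4.37 in D, from 52 to 77 counts per library. Those values overlapped, and the gene did not pass the test (log2 fold change 0.23 ± 0.215, adjusted p = 0.40). It was not called in any of 19 alternatives (0.03 to 0.39, adjusted p between 0.15 and 0.91), which does not show that the groups were alike.

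Compared per unit length, the order of the genes changed between the groups. In C the mean levels ran from GSTP1 (469 ± 27.7 FPKM) and GPX1 (201 ± 19.2) through GSS (35.0 ± 0.997), GSR (22.6 ± 1.66), GCLC (10.7 ± 0.456), GCLM (9.61 ± 0.159), CHAC1 (5.94 ± 0.608), SLC7A11 (3.23 ± 0.446) and CHAC2 (2.33 ± 0.323) to CBS (1.16 ± 0.319). No neighbours in that order had overlapping libraries, but the order also depends on the gene lengths used. In D, GSTP1 (711.5 ± 143) and GPX1 (254 ± 52.9) again led, followed by GSR (60.6 ± 2.85), CHAC1 (47.2 ± 6.97), GSS (42.5 ± 5.42) and GCLM (40.1 ± 1.98), and the last 3 of these overlapped. GCLC (30.1 ± 3.56) and SLC7A11 (22.7 ± 8.78) overlapped too, as did CBS (2.59 ± 0.689) and CHAC2 (2.45 ± 0.498) at the bottom. Among all tested genes, CHAC1 stood at percentile 47.8 of mean FPKM in C and 89.2 in D, and SLC7A11 at 34.5 and 79.2. GSS stood at 85.3 and 88.0.

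Ratios of FPKM within a library set genes of the same or related steps against each other without the scaling of the libraries. They keep each library's trend with gene length. GCLM to GCLC was 0.870, 0.893 and 0.936 in C and 1.23, 1.29 and 1.51 in D, below 1 in every C library and above 1 in every D library. The side of 1 depends on the lengths used, 6380 bp for GCLM and 3438 bp for GCLC. It therefore does not settle which message was the scarcer. CHAC1 to CHAC2 went from 2.12, 2.51 and 3.14 to 20.4, 19.8 and 18.1. SLC7A11 to CBS was 4.15, 2.04 and 2.70 in C and 6.29, 13.65 and 7.15 in D. SLC7A11 to SLC3A2 was 0.0200, 0.0158 and 0.0239 against 0.0452, 0.0769 and 0.0276, with D3 just above C3. All 4 ratios were higher in D without overlap, by 0.57, 2.92, 1.58 and 1.22 on the log2 scale in the order given. For each, the exact 2-sided permutation p was 0.1, the smallest that 3 libraries against 3 allow, and 0.1 after adjustment over the 4 ratios.

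**Figure D3:**
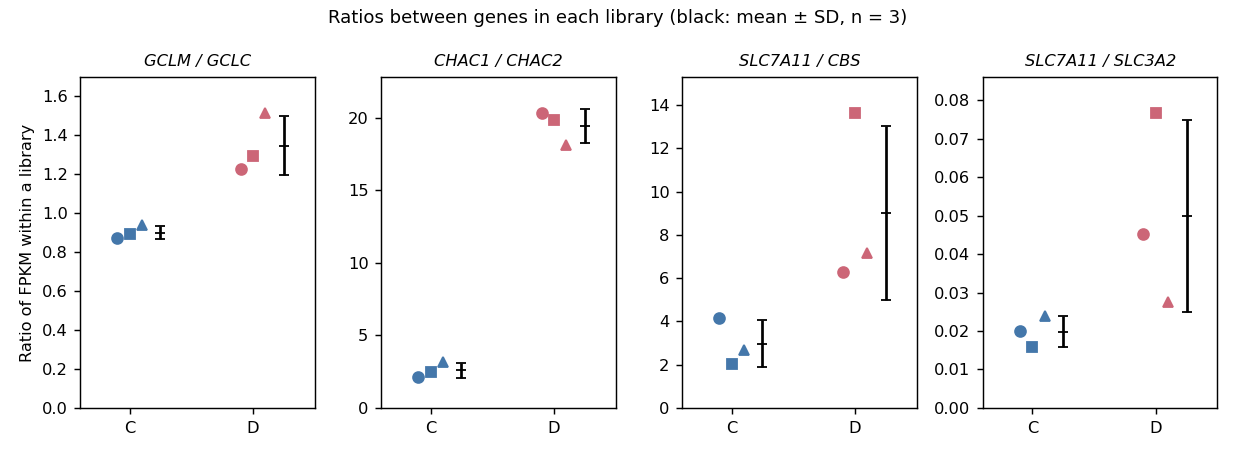
Ratio of FPKM between 2 genes within each library (circle, square and triangle for replicates 1, 2 and 3; linear axes from 0), with mean ± SD in black. The GCLM to GCLC ratio crosses 1 between C and D, and the D3 value of SLC7A11 to SLC3A2 (0.0276) lies near C3 (0.0239).

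The D libraries differed along gene length, and the spread of these genes among the D libraries moved with its removal, in some to narrower and in others to wider values. The slope of log2 CPM on log2 length was −0.06, 0.10 and −0.26 in D1, D2 and D3, and 0.07, 0.02 and 0.12 in C1, C2 and C3, each taken from the gene's mean over the 6 libraries. SLC7A11, the longest of the set at 9742 bp, lay above its C mean by 2.85, 3.44 and 2.40 (log2) in D1, D2 and D3, and by 3.10, 3.41 and 2.92 once the length trend of each library was removed. GSTP1, the shortest at 741 bp, lay above it by 0.68, 0.43 and 1.09, and by 0.47, 0.48 and 0.46 after that step. For GPX1 (1178 bp) the values were 0.39, 0.19 and 0.85 before and 0.25, 0.25 and 0.37 after. GCLM, the second longest at 6380 bp, went the other way: 2.14, 2.26 and 2.24 became 2.28, 2.24 and 2.56. So did GSR (3034 bp), where 1.59, 1.59 and 1.55 became 1.58, 1.64 and 1.47, while GCLC and CBS widened slightly. CHAC1, of 3722 bp, barely moved: 3.10, 2.89 and 3.40 became 3.14, 2.93 and 3.43. In the edgeR fit with the trend removed, the same 9 genes were called higher, as were 32.9% of all tested genes. GSTP1 had 0.47 (adjusted p = 0.00016), GPX1 0.29 (adjusted p = 0.012) and SLC7A11 3.16 (adjusted p = 3.8e-07), while CHAC2 had 0.05 (adjusted p = 0.81).

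**Figure D4:**
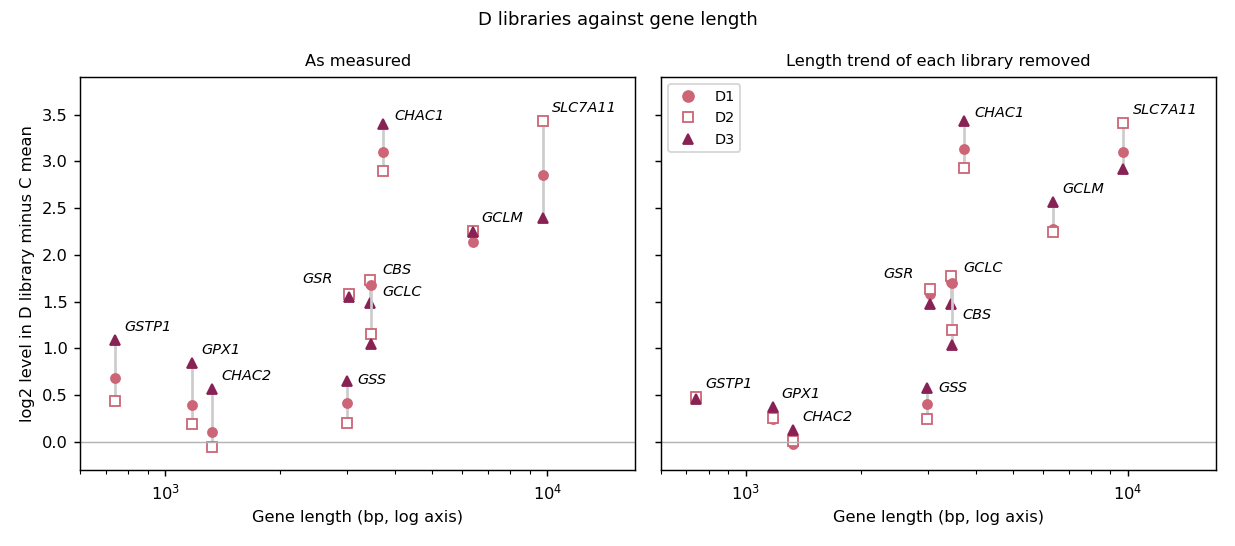
Log2 level of each D library above the C mean against gene length (log axis), as measured (left) and after removing the trend of each library with length (right). The D1, D2 and D3 points of GSTP1, spread from 0.43 to 1.09 on the left, lie between 0.46 and 0.48 on the right.

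The other genes of the pathway, pooled here with its regulators, did not share one direction. Of 95 such genes on 8 lists, 76 were tested, among them 12 transcriptional regulators. Of the 76, 29 were called higher and 13 lower (38.2% and 17.1%), and their median log2 fold change was 0.14. The regulators gave 10 of the 29 rises and 0 of the 13 falls, so the pooled share called higher does not describe the remaining lists alone. The lower count was 20 with library size only, 20 with length trends removed and 8 without D1. The share of all tested genes called lower moved in the same fits, to 35.1%, 30.4% and 22.0%, and over these fits and those without each other library the share called higher ranged from 20.4% to 32.9%. Counts per list below stand beside 26.8% of all tested genes called higher and 27.7% lower. Of the tested regulators known to act on the 10 genes, 10 of 12 rose and 0 fell (83.3% and 0%, median 1.44). NFE2L2, which encodes NRF2, went from 65.9 ± 3.48 to 139 ± 24.0 CPM (1.08 ± 0.14), and KEAP1, its inhibitor, from 42.9 ± 2.15 to 121 ± 8.66 (1.49 ± 0.11). ATF4 rose by 1.25 ± 0.14 and its targets ATF3, from 9.18 ± 1.07 to 71.2 ± 5.54 CPM (2.96 ± 0.13), and DDIT3 (1.92 ± 0.22) rose as well. BACH1, a repressor of NRF2 targets, had 0.11 ± 0.19 (adjusted p = 0.63), and NFE2L1 −0.29 ± 0.23 (adjusted p = 0.31).

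**Figure D5:**
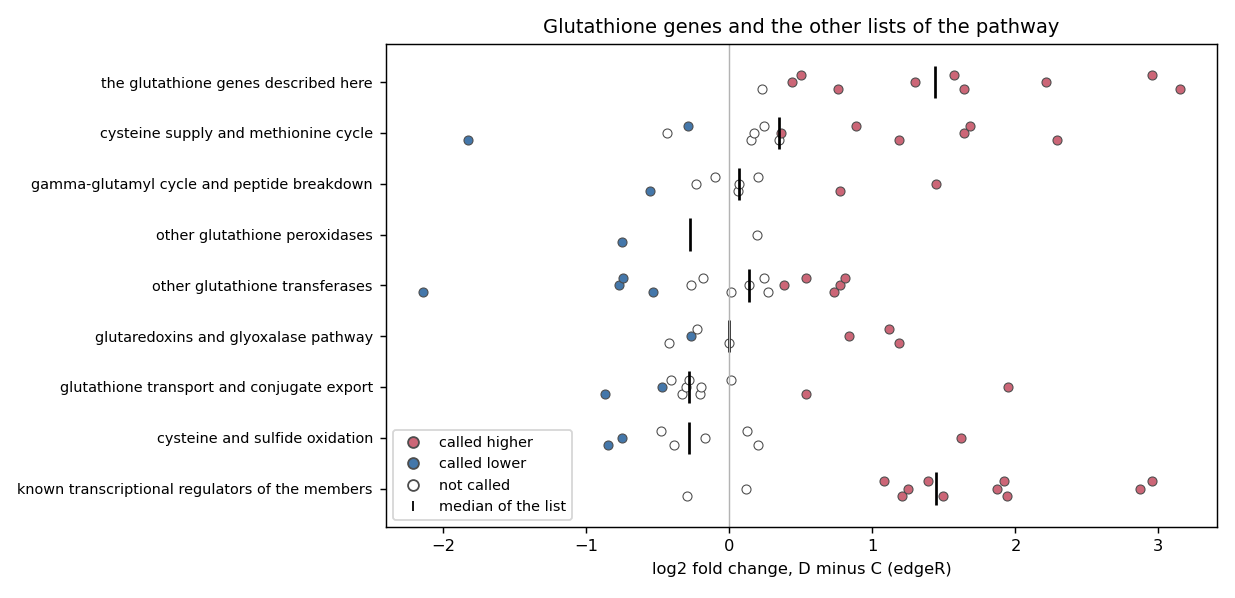
Log2 fold change (D minus C) of every tested gene of each list, coloured by call, with the median of the list as a black bar. The regulators (median 1.44) and the 10 glutathione genes (median 1.43) lie to the right of the remaining lists, whose medians range from −0.28 to 0.35.

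On the supply side, 6 of 13 genes of cysteine supply and the methionine cycle rose and 2 fell (46.2% and 15.4%, against 26.8% and 27.7% of all tested genes, median 0.35). CTH led the rises, and SLC1A1, a glutamate and cysteine transporter, fell from 10.2 ± 0.728 to 2.86 ± 0.315 CPM (−1.83 ± 0.15). AHCYL1 was the second fall (−0.29), and the list held 1 fall when C1, C2, C3, D1 or D3 was left out. Of 8 genes of the gamma-glutamyl cycle and peptide breakdown, which act outside and inside the cell, 2 rose and 1 fell (median 0.07). These shares, 25% and 12.5%, did not exceed those of all tested genes, and 2 fell with length trends removed. GGT1, a transpeptidase that opens glutathione outside the cell, rose by 0.77 ± 0.16 from 3.78 to 6.47 CPM, and the peptidase gene ANPEP fell from 613 ± 36.5 to 417 ± 48.6 CPM (−0.56 ± 0.12). GGCT, the cyclotransferase that acts on gamma-glutamyl amino acids, went from 39.8 ± 4.43 to 37.1 ± 7.92 CPM without passing the test (−0.10 ± 0.17, adjusted p = 0.62).

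Enzymes that use glutathione are given next. Of 2 other tested peroxidases, GPX8 fell from 151 ± 8.86 to 89.6 ± 11.4 CPM (−0.75 ± 0.12), and GPX4, which protects lipids from peroxidation, had 0.19 ± 0.16 (adjusted p = 0.32); 1 of the 2 was called higher without D2. Of 15 other transferases and related enzymes, 5 rose and 4 fell (33.3% and 26.7%, near the 26.8% and 27.7% of all tested genes, median 0.14). GSTZ1 rose by 0.81 ± 0.15, and PTGES, a glutathione-dependent prostaglandin synthase, fell from 5.68 ± 1.22 to 1.29 ± 0.216 CPM (−2.14 ± 0.23). Only 3 of the 15 were called higher without C1, C2 or D1 or with library size only, and 2 lower without D1. Of 7 glutaredoxin and glyoxalase genes, 3 rose, GLRX2 by 1.19 ± 0.20, and 1, GLO1, fell (−0.27 ± 0.10), or 42.9% and 14.3%. The count of falls there was 0 without C1, C2, C3, D1 or D2, 3 without D3, and 2 with library size only or length trends removed.

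Transport and sulfur oxidation come last. Of 11 genes of glutathione transport and conjugate export, 2 rose and 2 fell (18.2% each, against 26.8% and 27.7% of all tested genes, median −0.28). ABCC2, an exporter of conjugates, went from 1.30 ± 0.125 to 5.02 ± 1.55 CPM (1.95 ± 0.26), and SLC25A40, related to the mitochondrial glutathione carrier, fell by 0.87 ± 0.12. The rises numbered 1 without C1, C2 or D1 or with library size only. The falls numbered 4 without D2, 5 without D3 or with length trends removed, and 6 with library size only. Of 8 genes of cysteine and sulfide oxidation, 1 rose and 2 fell (12.5% and 25%, median −0.28): GOT1 went from 76.7 ± 3.25 to 235 ± 30.6 CPM (1.62 ± 0.12) and the sulfurtransferase gene MPST from 49.8 ± 4.12 to 27.6 ± 10.02 (−0.85 ± 0.23). With length trends removed 2 rose and 4 fell, and without C1 or D1 1 fell.

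Genes with the most similar profile were sought for the 6 genes called at 2-fold or more. Likeness was the root mean square difference over the 6 libraries in log2 CPM taken from each gene's C mean, among the 9452 genes whose mean log2 CPM reached 3. TRIB3 was closest to CHAC1 (0.08 log2 units), followed by ZNF222 (0.15) and OSGIN1 (0.19). SLCO2B1 (0.20), SESN2 (0.33) and SLC22A15 (0.375) came nearest to SLC7A11. KLF4 (0.04), ING3 (0.05) and PSAT1 (0.05) were nearest to GSR, and WASHC2A (0.06), WARS1 (0.07) and ING3 (0.08) to GCLC. AMIGO2, MMP1 and NAP1L2 lay 0.09 to 0.10 from GCLM, and L3MBTL2 and MCOLN1 0.20 and 0.22 from CBS. Within the set, GCLC and GSR were the closest pair (0.11), and CHAC1 and CHAC2, 2 genes of one family, the farthest (2.08). Taken from the C mean, this difference largely follows the log2 fold change, which was largest for CHAC1 (3.15) and smallest for CHAC2 (0.23).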

How the data were processed

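For each of 6 libraries the authors deposited raw counts per gene symbol and FPKM values. The FPKM values deposited equal the count divided by the library total and by a gene length common to all 6 libraries, and these lengths are the ones used here. Per the labels' protocols, RNA was column-purified and libraries came from a SMARTER mRNA kit. The sources used here give no aligner, counter or strand setting, and the submitters' processing notes name mouse builds although symbols are human, so no coordinates or sequences are shown.

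The contrast D minus C was fitted over all 12682 genes kept by filterByExpr (99.952% of counts) in edgeR 4.0.16 under R 4.3.3, with TMM factors, group as the only term, 2-sided tests and Benjamini-Hochberg adjustment over all of them. A standard error is the log2 fold change over the square root of F. FPKM ratios were compared by exact permutation. The fits were also run on simulated counts with few changed genes and no trend with length. That setting differs from these data, so it does not show how the fits perform on them.

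Alternatives were DESeq2 1.42.0, limma 3.58.1 (voom, and its trend fit of log2(FPKM + 1), with a minimum of 1 FPKM in 3 libraries or none, and of log2(FPKM + 0.1) with that minimum), RLE, upper quartile or no scaling factors, no filter, 1 CPM in 3 libraries, an adjusted p under 0.01, a replicate block, each library left out, the 20 most abundant genes left out, and each library's trend with log2 length removed by lowess (span 0.4). Summing CBS and CBSL was added after the data had been seen.

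The genes, lists and tests were chosen with earlier results of these data known. Besides the 10 genes, the text names from each list the called gene with the largest change in each direction (mean log2 CPM of at least 1) and 9 genes by role. AHCYL1, BACH1, NFE2L1 and the marker and identity genes were named after their values were seen. One gene that the rule for similar profiles gave for CBS is not reported here.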

Additional observations from a re-analysis of the deposited data

How the results depend on the processing

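CHAC1, SLC7A11, GCLM, GCLC, GSR, CBS and GSTP1 kept their direction and their call under every alternative run. Their log2 fold changes ranged over 2.79 to 3.29, 2.42 to 3.18, 1.95 to 2.37, 1.41 to 1.73, 1.38 to 1.62, 0.73 to 1.43 and 0.47 to 0.93. The count of genes called higher stayed between 7 and 9 of the 10. Over the alternative fits, at an adjusted p under 0.05, 15.7% to 32.9% of all tested genes were called higher. GSS and GPX1 lost their calls, with library size only (0.28 and 0.34), on log2(FPKM + 1) with the filter (0.27 and 0.32) or without it (0.27 and 0.32), and on log2(FPKM + 0.1) (0.27 and 0.32). With 1 library left out GSS ranged from 0.325 to 0.575 and GPX1 from 0.30 to 0.67. Library size only moved the median log2 change of all genes from −0.02 to −0.17. The other pathway genes called lower numbered 20 with library size only, 20 with length trends removed and 8 to 18 with 1 library left out, where 35.1%, 30.4% and 21.6% to 30.3% of all genes were called lower. The GCLM to GCLC ratio differed by 0.71 (log2) with length trends removed. The cause of these changes was not tested.

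Replicate numbers are shared between the groups. Deviations of C and D libraries of the same number correlated at 0.01, −0.40 and −0.37. Those of unlike numbers correlated at −0.11 to 0.42. With 3 libraries per group, these correlations cannot settle whether the numbers pair the libraries. With the replicate block, GSS (0.42) and GPX1 (0.48) were not called, and the other 7 calls held. In that fit 7 of the 10 genes were called higher, against 21.2% of all tested genes. CBS and CHAC2, with 51 to 215 counts per library, are the values that depth limits most.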
